A study of Bos taurus with 96 samples.

Results

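The response to calving was compared between liver and muscle by setting the change of each gene from late pregnancy (LP) to early lactation (EL) in the liver of a cow against the change of the same gene in her muscle. The comparison used 64 of the 96 libraries of the series, those of 16 cows at both time-points in both tissues. It covered 10363 of 24616 genes, those with a mean of at least 1 CPM (counts scaled to library size) in liver and also in muscle. The quantity reported throughout is the tissue contrast, the log2 change from LP to EL in liver minus that in muscle, so that a positive value is a rise in liver, a fall in muscle or a mixture of both.

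The animals were Holsteins, of which 8 belonged to the Fert+ group, whose genetic merit for fertility traits was good, and 8 to the Fert- group, whose merit was poor, and all had calved between LP and EL. Liver and muscle were taken by percutaneous punch biopsy from the same animals, the muscle being the semitendinosus, and polyadenylated RNA was sequenced. Genotypes were pooled unless stated, and each cow entered as her own control. Mid lactation (ML), the last time-point, is used only where named.

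At the onset of lactation the udder of a dairy cow takes up glucose, amino acids and fatty acids faster than feed intake can supply them. The liver makes nearly all of the glucose of a ruminant, from propionate, lactate and amino acids, through pathways in which pyruvate carboxylase and lactate dehydrogenase act. Skeletal muscle holds the largest reserve of protein, and it spares glucose by burning fatty acids and releases amino acids through the ubiquitin-proteasome and autophagy pathways.

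Total counts per library ranged from 14966847 to 26358063 in liver and from 15279337 to 21422737 in muscle. The libraries held the tissue their labels name, since 8 hepatocyte markers summed to between 34500 and 217000 CPM in liver and to at most 39.8 CPM in muscle, while skeletal muscle markers summed to at most 0.274 CPM in liver. Of the 64 libraries, 8 from 5 cows carried a second pattern of counting on 19 genes, of which 7 were among the genes tested. Symbols were known for 1277 of the genes tested, and these come from lists of the study rather than from the whole genome. Among them 324 had a higher and 174 a lower change in liver, with a median tissue contrast of 0.12 beside -0.04 over all genes tested. Near-identical copies, such as the MT1A, KIF4B, GSTM3, OAS1Y and BOLA-DQA2 genes, may exchange reads and are uncertain.

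The liver libraries of 2 cows, Fert- cow 426 and Fert+ cow 3434, ran against the rest. The liver change of cow 426 correlated at -0.57 over genes with the mean of the other 15 cows and that of cow 3434 at -0.26, whereas the other 14 cows gave -0.01 to 0.59. Pyruvate carboxylase (PC) in the liver of cow 426 stood at 2730 CPM in the library labelled LP and at 601 CPM in the library labelled EL, and in cow 3434 at 548 and 450 CPM, while it was higher at EL in all 14 other cows. FADS2 went from 44.7 to 1080 CPM in cow 426 and from 411 to 1660 CPM in cow 3434, and fell in 13 of the other 14. Both cows were kept under their labels, and results are also given for the 14 other cows. The 2 cows were singled out from these same data. A smaller spread and more liver calls without them follow in part from that choice. Muscle showed no such cow, with correlations of 0.41 to 0.86.

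The tissue contrast differed from 0 in 3190 genes, or 30.8% of those tested, by edgeR's quasi-likelihood test at an adjusted p under 0.05. Of these, 1352 (13%) had the higher change in liver and 1838 (17.7%) the lower. Within muscle 3266 genes rose (31.5%) and 2212 fell (21.3%), and within liver 147 rose (1.42%) and 181 fell (1.75%). Without cows 426 and 3434 the contrast held 1247 higher and 1549 lower genes, muscle 2972 up and 2048 down, and liver 647 up and 499 down. The balance of the directions depended on the scaling between libraries. DESeq2 with its own size factors called 1933 genes higher and 1482 lower in liver than in muscle, and 2433 up and 3128 down in muscle. Library totals alone, which moved the median contrast of all genes to -0.37 and the median muscle change to 0.42, called 369 higher and 4898 lower, with 6490 rises and 579 falls in muscle and 138 rises and 57 falls in liver. Gene changes and calls are given below from edgeR on the scale of TMM factors, and the counts of a list under library totals or DESeq2 stand beside them where they differ by much. Of the genes tested 202 had a mean under 1 CPM in a tissue at one of the time-points, so that they passed the minimum there only through the other, and their differences between time-points are descriptions. Among the genes named below these are ALB, CFB, IL1B, MT1A, NR4A1, PSPH and RASL11B. Some genes named below were chosen for a called contrast of equal sign in at least 14 cows. Agreement between cows in the contrast of those genes is part of that choice.

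The contrast was mostly a muscle change. Among the 1352 genes with the higher change in liver, 1159 (85.7%) were called in muscle and not in liver, 53 in liver and not in muscle, 22 in both in opposite directions, 9 in both in the same direction and 109 in neither. For the 1838 genes with the lower change in liver the same counts were 1715 (93.3%), 38, 11, 2 and 72. The muscle change was the larger in size in 2921 of the 3190 genes, and in 2352 of 2796 without cows 426 and 3434. Genes with opposite calls then numbered 86 and 41. The median size of the log2 change was 0.113 in liver and 0.282 in muscle, with nearly equal median standard errors of 0.109 and 0.111.

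**Figure D1:**
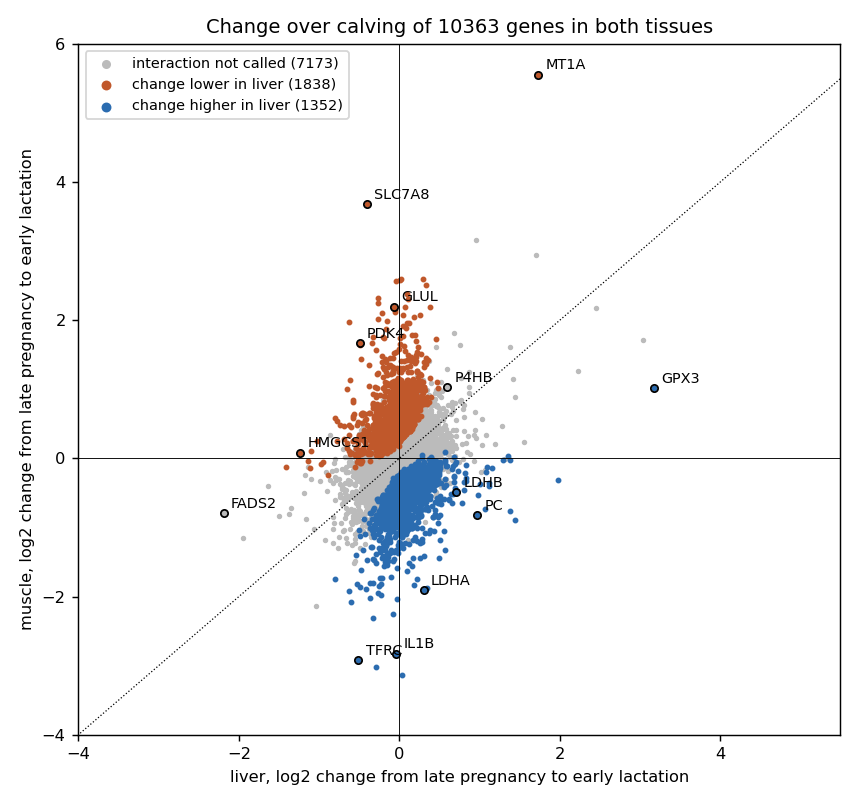
Log2 change from LP to EL in liver (x axis) against that in muscle (y axis), 1 point per gene over 10363 genes and 16 cows, with genes called for the tissue contrast coloured by direction, the line of equal change dotted and some named genes labelled. The cloud is wider along the muscle axis, where the median size of the change was 0.282 beside 0.113 in liver.

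Cows agreed less with each other in liver. The change had the same sign in at least 14 of 16 cows in 249 genes in liver (2.4%) and in 3615 genes in muscle (34.9%). The median SD between cows was 0.383 in liver and 0.352 in muscle, and liver had the larger SD in 6136 genes (59.2%). The mean changes of genes were spread over an SD of 0.206 in liver and 0.414 in muscle. The number of liver calls depended on the fit. With liver fitted alone, edgeR called 0 genes over 16 cows (1618 at an unadjusted p under 0.05; DESeq2, fitted with both tissues, called 607) and 598 over 14 cows. It was also 0 without the 5 cows that had a library of the second counting pattern (613 at an unadjusted p under 0.05).

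**Figure D2:**
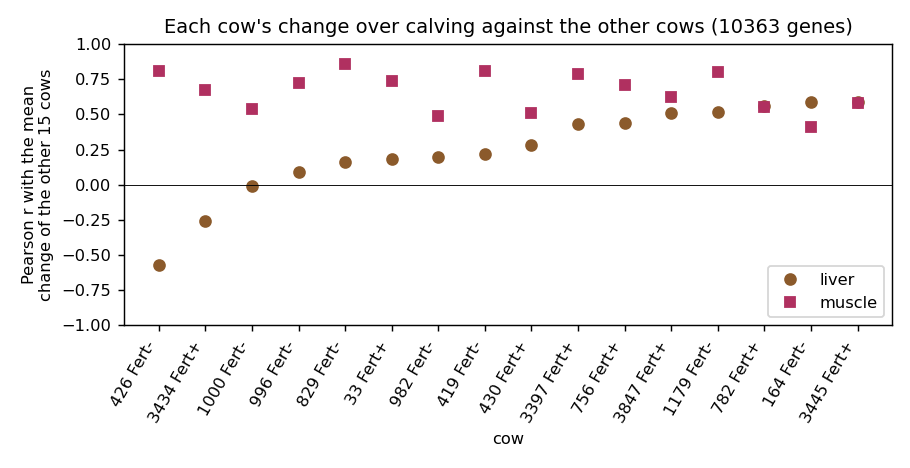
Correlation over genes of the change from LP to EL of each cow with the mean change of the other 15 cows, 1 point per cow and tissue, with the cows ordered by their liver value and the genotype beside the cow number. Muscle values run from 0.41 to 0.86, and cows 426 and 3434 lie below the other cows in liver at -0.57 and -0.26.

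The contractile genes themselves are nearly silent in liver and so were not among the genes tested, but their level in muscle moved with the results that follow. Summed skeletal muscle markers ran from 150000 to 238000 CPM in muscle at LP (median 212000) and from 23300 to 211000 CPM at EL (median 67700). They were lower at EL in 16 of 16 cows, with a ratio of EL to LP between 0.139 and 0.909 (median 0.377; exact permutation test over cows, two-sided, p = 3.05e-05, the smallest that 16 cows allow). Median CPM of skeletal actin, ACTA1, went from 44800 to 8000, of the fast myosin heavy chain MYH1 from 60500 to 23800 and of muscle creatine kinase, CKM, from 19100 to 8590. The 20 most abundant muscle genes held a median of 39.3% of counts at LP and 29.4% at EL, beside 31% and 31.7% in liver. In these biopsies fewer cells of a type and less RNA per cell cannot be told apart. The part of this fall in the contrasts below was not tested.

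Most glycolytic genes fell in muscle on the TMM scale. Of 21 genes of glycolysis and glycogen tested, 10 had the higher change in liver and 1 the lower (median contrast 0.58), and 15 fell and 2 rose in muscle (median -0.61). In liver the median was 0.08 and edgeR called none (4 at an unadjusted p under 0.05), while DESeq2 called 2 up, as did edgeR over the 14 other cows. Over these cows the contrast was higher in 9 and lower in 0. Under library totals it was higher in 8 and lower in 2, and 10 fell and 5 rose in muscle. Lactate dehydrogenase A, LDHA, which turns pyruvate into lactate, measured 947 to 2800 CPM (median 1570) in muscle at LP and 73.6 to 1143 CPM (median 394) at EL. In liver it measured 15.4 to 76.1 CPM (median 33.8) and 21.1 to 122.2 CPM (median 40.1). LDHA fell in the muscle of 16 of 16 cows with a narrow overlap of the time-points, while the liver ranges overlapped widely (contrast 2.21 ± 0.34, SE, adjusted p = 1.46e-05). Phosphoglycerate kinase, PGK1, fell in muscle from a median of 1115 to 415 CPM and had a positive contrast in all 16 cows (1.61 ± 0.19, adjusted p = 2.57e-07). Aldolase A, ALDOA, likewise had a positive contrast in 16 of 16 cows (1.24 ± 0.20), with muscle medians of 26030 and 14510 CPM. The muscle enolase ENO3 (0.92 ± 0.25, adjusted p = 0.00548) and the glycerol-3-phosphate dehydrogenase GPD1 (1.68 ± 0.26, adjusted p = 1.46e-05) also fell in muscle, GPD1 in every cow.

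Genes of gluconeogenesis and pyruvate use included some that rose in liver and fell in muscle. Of 15 tested, 9 had the higher and 2 the lower change in liver (median 0.58), with 2 rises and 0 falls in liver and 2 rises and 10 falls in muscle. Over 14 cows the contrast counts were again 9 and 2, and 5 genes rose in liver. Under library totals the contrast counts were 6 and 2, and in muscle 2 rose and 2 fell (median -0.14). PC, which makes oxaloacetate from pyruvate at the entry to gluconeogenesis, measured 248 to 2732 CPM (median 494) in liver at LP and 449.7 to 2512 CPM (median 866) at EL. In muscle it measured 10.8 to 31.9 CPM (median 15.5) and 3.91 to 16.5 CPM (median 8.83). The time-points overlapped in both tissues, but PC was higher at EL in the liver of 14 cows and lower in the muscle of 13 (contrast 1.79 ± 0.31, adjusted p = 5.58e-05). It rose by 0.97 ± 0.22 in liver and changed by -0.82 ± 0.22 in muscle, and the contrast of the 14 cows was 1.96 ± 0.24.

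Lactate dehydrogenase B, LDHB, the subunit that favours the use of lactate, had liver levels of 175 to 834 CPM (median 296) at LP and 219 to 819 CPM (median 497) at EL. Its muscle levels were 126 to 239.8 CPM (median 181) and 81.8 to 198 CPM (median 135). It rose in liver (0.71 ± 0.15, adjusted p = 0.0113) and fell in muscle (-0.49 ± 0.14, adjusted p = 0.0043), and cow 426 was the one cow with a negative contrast. The mitochondrial aspartate aminotransferase GOT2 had a contrast of 0.37 ± 0.13 with a muscle change of -0.50 ± 0.09. SDS, which breaks down serine to pyruvate, gave 1.21 ± 0.70, with liver CPM of 7.15 to 194 already at LP, and was not called (adjusted p = 0.191). PDK4, the kinase that shuts pyruvate out of the citrate cycle, went the other way. It rose in the muscle of 15 cows, from a range of 184 to 3801 CPM (median 1656) to one of 1569 to 7890 CPM (median 3944), and its liver change of -0.49 ± 0.33 was not called (contrast -2.16 ± 0.46, adjusted p = 0.000517).

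**Figure D3:**
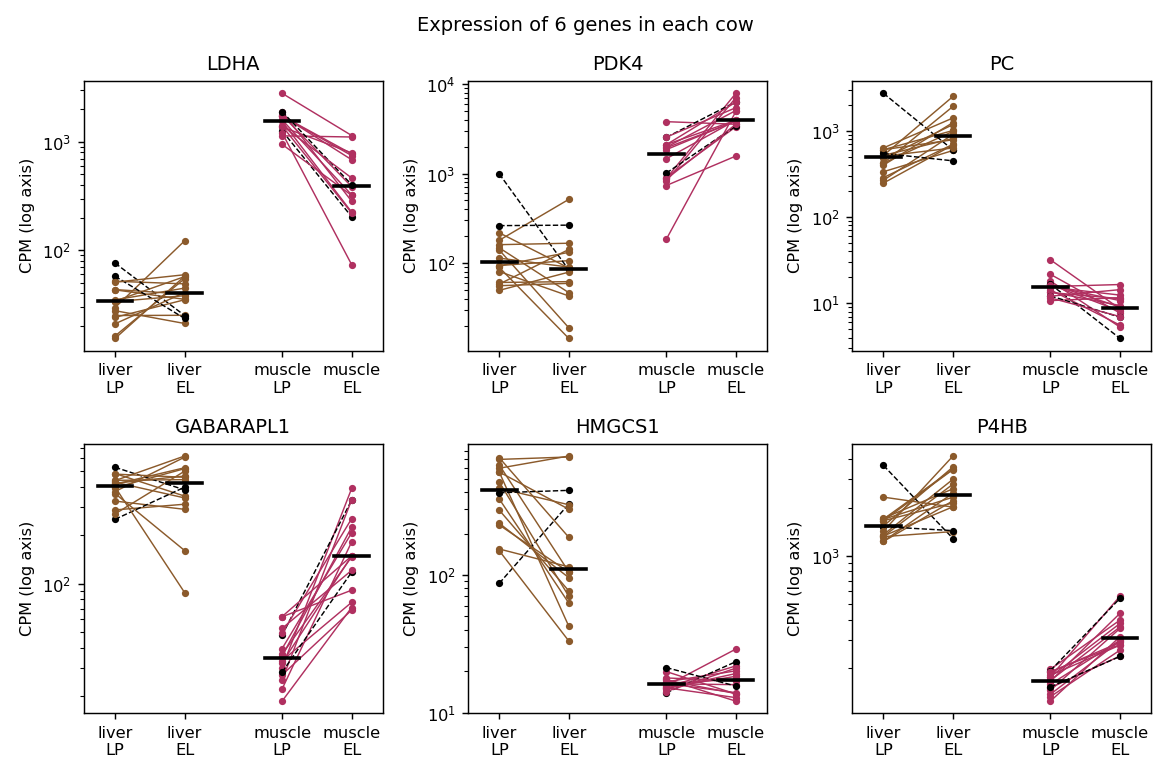
CPM on a log axis of selected genes in liver and muscle at LP and EL, 1 point per cow, a line joining the libraries of a cow (dashed and black for cows 426 and 3434) and a bar at the median. LDHA falls in the muscle of 16 of 16 cows, and PC rises in the liver of 14 and falls in the muscle of 13.

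Most genes of the respiratory chain fell in muscle on the TMM scale. Of 71 subunits of the electron transport complexes and ATP synthase tested, 65 had the higher change in liver and none the lower, with a median of 0.63 beside -0.04 over all genes tested. In muscle 65 fell and none rose (median -0.52), and in liver 2 rose and none fell (median 0.11). The median over the list was below 0 in the muscle of 16 of 16 cows and above 0 in the liver of 11. Without cows 426 and 3434 the counts were 67 and 0 for the contrast, 0 and 65 for muscle and 17 and 0 for liver. Under library totals 36 were higher and none lower, with 1 up and 28 down in muscle. The skeletal muscle markers described above fell over the same interval in all 16 cows.

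UQCRB, a subunit of complex III, measured 274 to 449 CPM (median 361) in muscle at LP and 142 to 302 CPM (median 236) at EL. In liver it measured 17.1 to 45.3 CPM (median 22.5) and 18.4 to 51 CPM (median 34.1). The muscle ranges met only at their ends and the liver ranges overlapped widely, and UQCRB was called in both tissues (0.45 ± 0.13 in liver, -0.63 ± 0.12 in muscle, contrast 1.08 ± 0.18). NDUFV2 of complex I was called in both tissues too (0.32 ± 0.09 and -0.53 ± 0.09, contrast 0.85 ± 0.13). Cytochrome c1, CYC1, fell in the muscle of all 16 cows (-0.68 ± 0.12), and COX5A of complex IV fell from a muscle median of 368 to 242 CPM (contrast 1.05 ± 0.14, adjusted p = 1.64e-06). Their liver changes of 0.41 ± 0.12 and 0.32 ± 0.10 were not called over 16 cows (adjusted p = 0.0535 and 0.0661) and were over 14 (0.00111 and 0.00292). The catalytic subunits of ATP synthase, ATP5A1 and ATP5B, had contrasts of 0.78 ± 0.13 and 0.67 ± 0.12. SLC25A3, which carries phosphate into the mitochondrion, rose in liver by 0.37 ± 0.10 and fell in muscle by 0.26 on the log2 scale, with a contrast that lost its call under library totals.

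**Figure D4:**
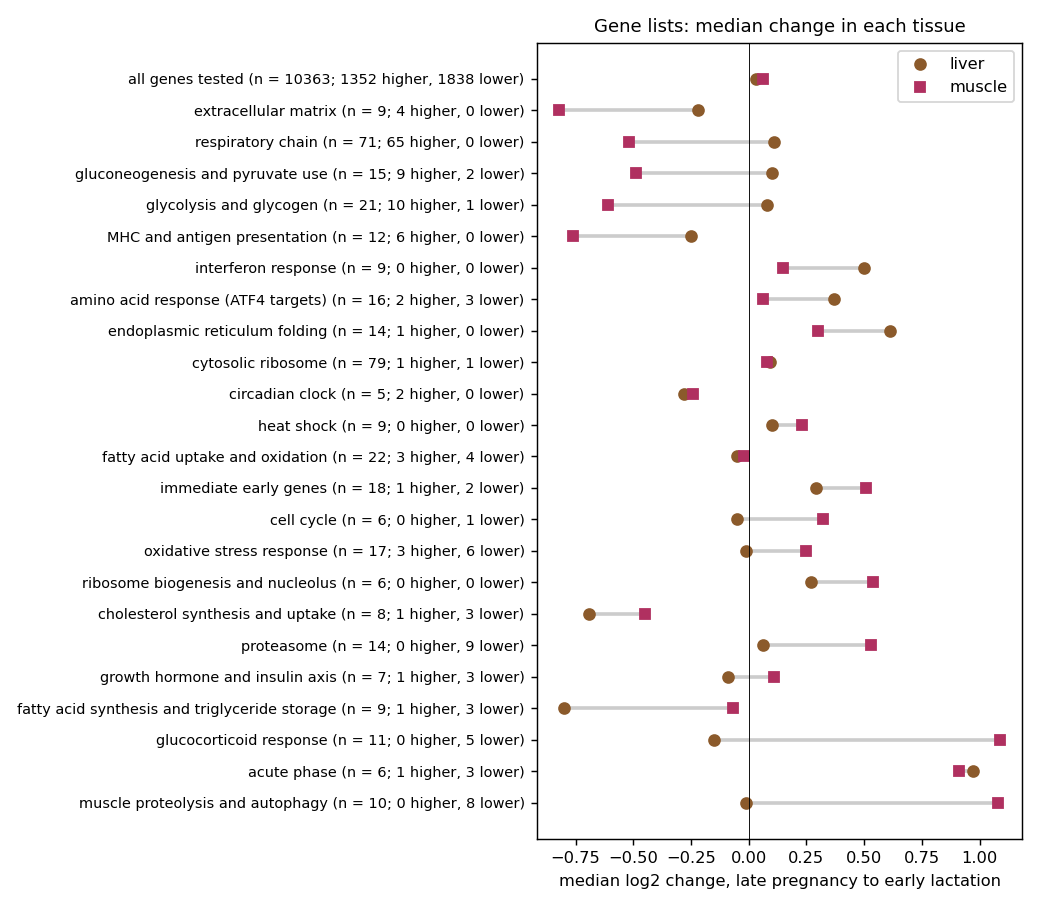
Median log2 change from LP to EL over the tested genes of each list, in liver and in muscle. The labels give the number of genes tested and how many had the higher or the lower contrast. The respiratory chain and glycolysis lie below 0 in muscle at -0.52 and -0.61 and near 0 in liver, while proteolysis and glucocorticoid genes lie above 0 in muscle at 1.08 and 1.09.

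Lipid genes were divided by function. Of 8 genes of cholesterol synthesis and uptake tested 5 fell in liver (median -0.69) and 4 in muscle (median -0.45), and the contrast was higher in 1 and lower in 3. Over 14 cows, 7 fell in liver. Under library totals 1 fell in liver, 2 rose and 1 fell in muscle, and the contrast was lower in 4. That scaling called 4898 of all 10379 genes lower. On the TMM scale 1.75% of all genes tested fell in liver and 21.3% in muscle. The contrast was higher in 13% and lower in 17.7% of them. HMGCS1, which makes HMG-CoA, measured 87 to 712 CPM (median 412) in liver at LP and 33.1 to 733 CPM (median 110) at EL. In muscle the ranges were 13.9 to 21.3 CPM (median 16.2) and 12.1 to 29 CPM (median 17.3). HMGCS1 was higher at EL in the liver of 4 cows only, and in muscle as many cows rose as fell (contrast -1.32 ± 0.36, adjusted p = 0.00587). The sterol desaturase SC5DL had a contrast of -0.52 ± 0.19. SC4MOL, a sterol oxidase, fell in both tissues (-0.67 ± 0.18 and -0.62 ± 0.18) with a contrast of -0.05 ± 0.26.

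Of 9 genes of fatty acid synthesis and triglyceride storage, 2 fell in liver and 1 rose and 1 fell in muscle, with a contrast higher in 1 and lower in 3 (median -0.67). Leaving out cows 426 and 3434, 6 fell in liver (median -0.97) and 6 had the lower contrast. DESeq2 over 16 cows also gave 6 falls in liver, and library totals gave none there and the lower contrast in 5. Library totals called 4898 of all 10379 genes lower, and the TMM scale 17.7% of those tested. Of all genes tested 1.75% fell in liver over 16 cows and 4.82% over 14. FADS2, a desaturase of polyunsaturated fatty acids, fell in liver by 2.19 on the log2 scale, from a range of 44.7 to 1718 CPM (median 989) to one of 10.7 to 1664 CPM (median 176), and its contrast was called only without the 2 cows (-1.92 ± 0.67, adjusted p = 0.0321, against 0.166). MID1IP1, a regulator of lipogenesis, was lower at EL in the liver of 15 of 16 cows and rose in muscle (contrast -1.38 ± 0.34). ACSS2, which activates acetate, had a contrast of -1.21 ± 0.43 (adjusted p = 0.0318). LPIN1, the phosphatidate phosphatase, rose in the muscle of all 16 cows (1.65 ± 0.33) with a liver change of 0.01 ± 0.36. Without the cows of the second counting pattern the contrasts of HMGCS1, SC5DL, MID1IP1, ACSS2 and LPIN1 were not called.

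The counts of fatty acid uptake and oxidation moved with the scaling, as did those of all genes tested. On the TMM scale 3 of 22 genes were higher in liver and 4 lower (median -0.12), with 0 rises and 4 falls in liver and 6 rises and 4 falls in muscle. Under library totals 0 were higher and 11 lower (median -0.45), with 12 rises and 2 falls in muscle. Over all genes tested 13% were higher and 17.7% lower on the TMM scale. Library totals called 369 of 10379 genes higher and 4898 lower (median -0.37), with 6490 rises and 579 falls in muscle. ACSL4, an acyl-CoA synthetase, rose in the muscle of all 16 cows from a range of 28.4 to 45.5 CPM (median 34.9) to one of 52.5 to 546 CPM (median 133), so that the time-points did not overlap. Its liver medians were 10.3 and 10.2 CPM (contrast -1.86 ± 0.27, adjusted p = 5.16e-06). The fatty acid transporter SLC27A6 rose in muscle (1.14 ± 0.24), gave -0.62 ± 0.23 in liver and had a negative contrast in 16 of 16 cows. ECHS1 of beta-oxidation (-0.11 ± 0.13, adjusted p = 0.564) and ACSL1 (-0.37 ± 0.24, adjusted p = 0.255) were not called.

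Genes of protein breakdown rose in muscle. Of 10 genes of muscle proteolysis and autophagy tested, 8 had the lower contrast and none the higher (median -1.17). In muscle 9 rose and none fell (median 1.08) and in liver none was called by edgeR or DESeq2 (0 at an unadjusted p under 0.05; median -0.01). GABARAPL1, which builds autophagosomes, measured 18.6 to 62.5 CPM (median 34.4) in muscle at LP and 68.6 to 390.1 CPM (median 149) at EL. In liver it measured 251 to 528 CPM (median 406) and 87.9 to 621 CPM (median 419.9). The muscle ranges did not overlap, every cow rose, and the liver medians were nearly equal (contrast -2.19 ± 0.29, adjusted p = 1.42e-06; exact permutation p = 3.05e-05). GABARAPL1 was named for a called contrast of equal sign in at least 14 cows, so its exact p in part restates that choice. FOXO1, the transcription factor that drives atrophy genes, rose in the muscle of 16 of 16 cows from a median of 28.2 to 69.8 CPM (contrast -1.52 ± 0.34). The autophagy receptor SQSTM1 had a contrast of -0.61 ± 0.14, and UBB rose in muscle by 0.42 ± 0.12 with a contrast that was not called (-0.43 ± 0.17, adjusted p = 0.0529).

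Of 14 proteasome subunits, 9 had the lower contrast and none the higher (median -0.44), 13 rose in muscle and none fell (median 0.53), and none was called in liver by edgeR or DESeq2 (0 at an unadjusted p under 0.05). With the 14 cows alone, 7 had the lower contrast and 12 rose in muscle. PSMA7 of the core particle measured 112 to 211 CPM (median 137) in muscle at LP and 169 to 532 CPM (median 265) at EL. In liver it measured 95.8 to 149 CPM (median 112) and 87 to 166.4 CPM (median 116). Muscle levels overlapped in part, with 14 of 16 cows higher at EL, and liver levels overlapped (contrast -0.89 ± 0.16, adjusted p = 0.000113). PSMD2 and PSMD7 of the regulatory particle had contrasts of -0.68 ± 0.14 and -0.67 ± 0.13, and PSMC3, at -0.21 ± 0.12, was not called.

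Other genes, most of them named for the size of their contrast, rose in muscle as well. SLC7A8, a transporter of large neutral amino acids, had the most negative contrast among named genes, -4.09 ± 0.49 (adjusted p = 3.48e-07). It measured 3.63 to 104 CPM (median 20.9) in muscle at LP and 71.1 to 476 CPM (median 288) at EL, and at most 2.7 CPM in liver. Every cow rose in muscle, and the ranges overlapped only at their ends. Glutamine synthetase, GLUL, rose in the muscle of all 16 cows from a range of 255 to 1207 CPM (median 602) to one of 604 to 8333 CPM (median 2399), with liver medians of 239.8 and 277 CPM (contrast -2.26 ± 0.33). NAMPT, which makes an NAD precursor (-2.09 ± 0.24), the D-aspartate oxidase DDO (-2.33 ± 0.36), the sorting receptor SORT1 (-2.15 ± 0.27) and STRIP2 (-2.60 ± 0.31) also rose in the muscle of all 16 cows.

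Some targets of the glucocorticoid receptor also rose in muscle. Of 11 tested, 5 had the lower contrast and none the higher (median -0.89), 6 rose and none fell in muscle (median 1.09), and none was called in liver by edgeR or DESeq2 (3 at an unadjusted p under 0.05). Over 14 cows 3 had the lower contrast and 1 rose in liver. Leaving out MT1A, which passed the minimum in muscle through EL alone, 4 of 10 had the lower contrast (median -0.85) and 5 rose in muscle (median 0.77). Over all genes tested 17.7% had the lower contrast and 31.5% rose in muscle. Under library totals 6 of the 11 had the lower contrast and 6 rose in muscle (median 1.44). That scaling called 4898 of all 10379 genes lower and 6490 up in muscle (median 0.42). GLUL, PDK4 and FOXO1 above belong to this list as well. DDIT4, an inhibitor of mTORC1, rose in muscle (1.09 ± 0.31), and its contrast of -1.24 ± 0.45 was called over 16 cows and not over 14 (adjusted p = 0.0343 and 0.0808). The metallothionein MT1A went in muscle from a range of 0 to 0.694 CPM (median 0.314) to one of 0.15 to 155 CPM (median 8) and in liver from a range of 2.77 to 1146 CPM (median 66.9) to one of 19.2 to 1745 CPM (median 358). Its muscle value of 5.55 ± 0.98 started from a mean of 0.294 CPM, and the liver value of 1.73 ± 0.79 was not called. Its contrast of -3.82 ± 1.27 had an adjusted p of 0.0211 over 16 cows and 0.0513 over 14, and an exact permutation p of 0.182 on log2(CPM + 1).

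**Figure D5:**
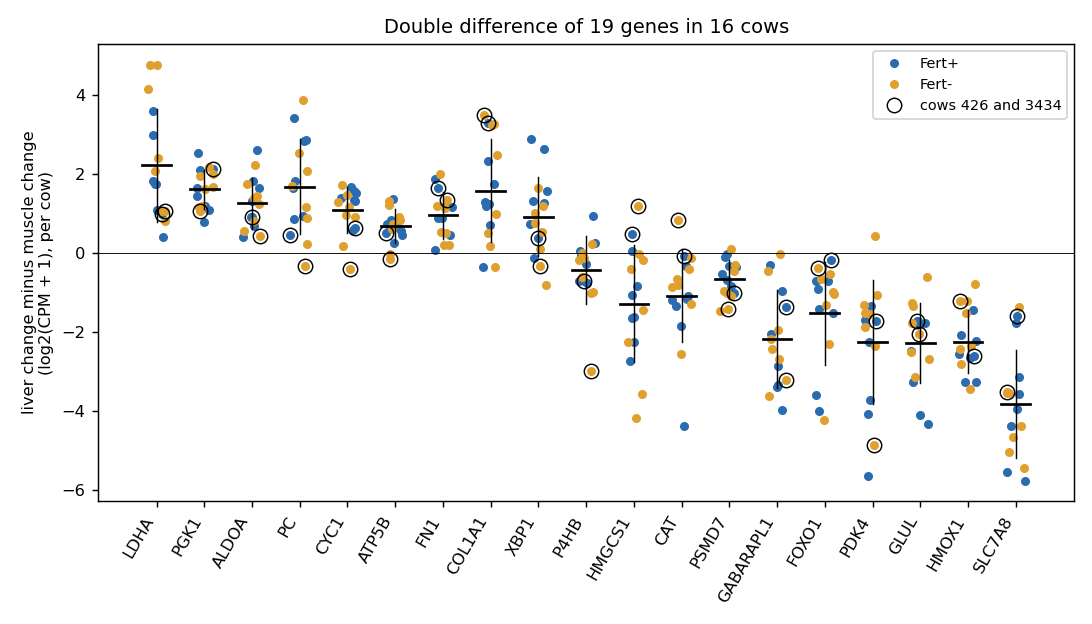
Tissue contrast on log2(CPM + 1) of selected genes, 1 point per cow coloured by genotype, with the mean and SD over 16 cows as bars and cows 426 and 3434 ringed. GABARAPL1, HMOX1 and SLC7A8 are below 0 in 16 of 16 cows and LDHA and PGK1 are above 0 in 16 of 16. All of these but PGK1 were named for a called contrast of equal sign in at least 14 cows.

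Of 17 oxidative stress genes tested, 3 had the higher and 6 the lower contrast (median -0.26), beside 13% and 17.7% of all genes tested. Leaving out 1 gene under 1 CPM in a tissue at one time-point, the counts were 3 and 5 of 16. In liver 1 rose and 3 fell, beside 1.42% and 1.75% of all genes tested. In muscle 6 rose and 3 fell, near the shares over all genes tested of 31.5% and 21.3%. Under library totals 2 had the higher and 9 the lower contrast, with 10 rises and 1 fall in muscle. That scaling called 4898 of all 10379 genes lower and 6490 up in muscle. Heme oxygenase, HMOX1, measured 20.7 to 54 CPM (median 28.2) in muscle at LP and 71 to 263 CPM (median 159) at EL, and 55.8 to 172 CPM (median 109) and 71.8 to 232 CPM (median 101) in liver. The muscle ranges did not overlap and all 16 cows rose (contrast -2.29 ± 0.21, adjusted p = 4.42e-09). Sulfiredoxin, SRXN1, rose in the muscle of all 16 cows as well (contrast -2.30 ± 0.33). Catalase, CAT, fell in liver by 0.78 on the log2 scale, with muscle at 0.25 ± 0.19 (contrast -1.03 ± 0.28). The plasma peroxidase GPX3 rose in liver by 3.18 ± 0.69, from a median of 97.8 to 1044 CPM, but cow 426 went from 5710 to 245 CPM and cow 3434 from 506 to 34.9 CPM. Its contrast was 2.17 ± 0.84 over 16 cows (adjusted p = 0.0483) and 2.75 ± 0.64 over 14 (adjusted p = 0.00217). GSTM3, a glutathione transferase, fell in liver (-0.62 ± 0.18) and rose in muscle (0.48 ± 0.18), where the call was lost over 14 cows (adjusted p = 0.0752).

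Among 18 immediate early genes the contrast was higher in 1 and lower in 2 (median -0.15), and in muscle 9 rose and 2 fell. Leaving out NR4A1, which passed the minimum in liver through EL alone, it was higher in 0 and lower in 2 of 17 (median -0.37). In muscle 9 of these 17 rose and 1 fell. In liver edgeR called none (2 at an unadjusted p under 0.05), and DESeq2 called 1 up, as did edgeR over 14 cows. Under library totals 5 had the lower contrast, while that scaling called 4898 of all 10379 genes lower. On the TMM scale the contrast counts lie below the shares over all genes tested, 13% higher and 17.7% lower. In muscle 31.5% of all genes tested rose and 21.3% fell on that scale. FOSL2 rose in the muscle of all 16 cows (2.19 ± 0.27, contrast -1.81 ± 0.38), whereas the nuclear receptor NR4A1, whose liver mean at LP was 0.968 CPM, fell in 14 (-1.44 ± 0.23, contrast 1.70 ± 0.38). FOS (1.29 ± 0.82, adjusted p = 0.238) and DUSP1 (-0.82 ± 0.51, adjusted p = 0.231) were not called, and FOS ranged over 1.73 to 361 CPM in muscle at LP alone.

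Extracellular matrix genes fell in muscle. Of 9 tested, 8 fell and none rose there (median -0.82), and the contrast was higher in 4 and lower in 0. In liver edgeR and DESeq2 called none (2 at an unadjusted p under 0.05), and edgeR over 14 cows called 1 down. Under library totals 5 fell in muscle and 2 had the higher contrast. Type I collagen, COL1A1, measured 32.4 to 124 CPM (median 63) in muscle at LP and 5.84 to 45.4 CPM (median 19) at EL, against 3.88 to 57.9 CPM (median 13.6) and 5.89 to 62.3 CPM (median 11.1) in liver. It fell in the muscle of 16 of 16 cows with little overlap (contrast 1.59 ± 0.33, adjusted p = 0.000405). Fibronectin, FN1, had a positive contrast in all 16 cows (0.99 ± 0.19), and COL18A1 (0.64 ± 0.16) also had the higher change in liver but lost the call under library totals. The summed level of 3 fibroblast markers in muscle ran from 175 to 428 CPM at LP (median 274) and from 63.8 to 279 CPM at EL (median 156), and 2 endothelial markers from 71.7 to 145 and from 86.6 to 203 CPM. The part of these cell types in the contrast was not tested.

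Of 12 genes of MHC and antigen presentation, 6 had the higher contrast and none the lower (median 0.57), and 10 fell and none rose in muscle (median -0.76). Leaving out 1 gene under 1 CPM in a tissue at one time-point, 5 of 11 had the higher contrast (median 0.53) and 9 fell in muscle. In liver edgeR called none (4 at an unadjusted p under 0.05) and DESeq2 1 down. Without cows 426 and 3434, 1 had a called contrast while 10 fell in muscle and 2 in liver, and under library totals none was called and 5 fell in muscle. CD74, the invariant chain of MHC class II, fell in the muscle of 15 cows from a range of 143 to 401 CPM (median 234) to one of 77.3 to 175 CPM (median 113) (contrast 0.64 ± 0.18). B2M, the light chain of class I, fell in muscle by 0.32 on the log2 scale with a contrast of 0.08 ± 0.12 that was not called. BOLA-DQA2 had an adjusted p of 0.0202 over 16 cows and 0.0783 over 14. Summed macrophage markers in muscle were at most 52.2 CPM and 6 neutrophil markers at most 17 CPM, with MARCO, CATHL1 and CATHL2 listed at 0.

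The genes with the most positive contrasts by the naming rule included several others that fell in muscle. The cytokine IL1B, at 2.79 ± 0.41, had muscle levels of 1.12 to 8.94 CPM (median 2.51) at LP and 0 to 2.3 CPM (median 0.266) at EL and passed the minimum there through LP alone. The transferrin receptor TFRC fell from a range of 29.4 to 522 CPM (median 129.5) to one of 5.91 to 173 CPM (median 13.6) in muscle (contrast 2.41 ± 0.50). IL1B fell in the muscle of 16 cows and TFRC in that of 15, and neither was called in liver. CCDC80, a secreted matrix protein (2.01 ± 0.42), and KIF4B, a kinesin (2.01 ± 0.48), also fell in all 16. RASL11B differed, since it rose in liver by 1.38 ± 0.35 and its muscle change of -0.76 ± 0.36, with a mean of 0.897 CPM at EL, was not called.

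Over all genes tested, 1.42% were called up in liver with cows 426 and 3434 and 6.24% without them, and the counts of the lists that follow are read against these shares. Among 14 genes of endoplasmic reticulum folding, 2 rose in liver (median 0.61) and 2 in muscle (median 0.30), and the contrast was higher in 1. Without cows 426 and 3434, 10 rose in liver (median 0.78) and still 1 had the higher contrast. DESeq2 over 16 cows called 7 up in liver, and under library totals 11 rose in muscle and the contrast was higher in 0 and lower in 1. P4HB, a protein disulfide isomerase, measured 1229 to 3659 CPM (median 1526) in liver at LP and 1281 to 4190 CPM (median 2390) at EL, and 124 to 197 CPM (median 166.4) and 236 to 561 CPM (median 306) in muscle. It rose in both (0.60 ± 0.14 and 1.03 ± 0.14), without overlap in muscle, and the contrast of -0.43 ± 0.20 was not called. XBP1, a transcription factor of the unfolded protein response, was the called member (0.91 ± 0.33, adjusted p = 0.0332). The chaperone HSP90B1 was not called (0.50 ± 0.31, adjusted p = 0.227).

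Of the acute phase genes 6 passed the filter in both tissues, and 1 had the higher and 3 the lower contrast (median -0.97). Over all genes tested these shares were 13% and 17.7%. In liver 1 rose over 16 cows and 3 over 14. Leaving out 3 genes under 1 CPM in muscle at LP, of which CFB is one, 1 of the other 3 had the higher and 1 the lower contrast. Their median was 0.41, of the opposite sign. ITIH4 rose in liver from a range of 1594 to 17780 CPM (median 2415) to one of 2268 to 34630 CPM (median 6751) with muscle medians of 7.34 and 7.98 CPM (contrast 1.31 ± 0.43, adjusted p = 0.0199). Cows 426 and 3434 had the higher ITIH4 value at LP, and the contrast of the other 14 was 1.62 ± 0.37. On log2(CPM + 1) the mean ITIH4 contrast was 1.23 over 16 cows (exact permutation p = 0.022). Without the cows of the second counting pattern it was 0.581 (exact permutation p = 0.298) and positive in 7 of 11 cows. Complement factor B, CFB, rose in muscle (1.46 ± 0.20) from a median of 0.896 to 2.06 CPM, with -0.12 ± 0.15 in liver, and complement C3 had a contrast of -0.70 ± 0.26. The fibrinogen chain FGB was not called (0.41 ± 0.40).

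Of 9 interferon-response genes edgeR called no contrast over 16 cows (2 at an unadjusted p under 0.05; median 0.38) and DESeq2 2 higher ones, with 1 up in liver and 1 down in muscle. Over 14 cows 3 had the higher contrast (median 0.72) and 5 rose in liver. Those called over 14 cows were BST2, with 0.80 ± 0.34 over 16 and 1.19 ± 0.27 over 14 cows, HERC6, with 0.59 ± 0.43 and 1.03 ± 0.35, and OAS1Y, with 0.38 ± 0.28 and 0.67 ± 0.22. In all of them cow 426 had the lowest contrast, so their calls over 14 cows rest in part on a choice made from these data.

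Among 16 targets of ATF4, which answers amino acid shortage, the contrast was higher in 2 and lower in 3 (median 0.30), with 2 rises in liver and 6 rises and 1 fall in muscle. These contrast counts are near the shares over all genes tested, 13% higher and 17.7% lower. In muscle 31.5% of all genes tested rose and 21.3% fell. Over 14 cows it was higher in 2 and lower in 1, and 5 rose in liver. DESeq2 gave 4 higher and 3 lower contrasts, and library totals 1 and 4. DDIT4, described above, is one of the genes with the lower contrast. Asparagine synthetase, ASNS, rose in liver from a range of 7.65 to 67.2 CPM (median 16.3) to one of 10.2 to 142 CPM (median 30.6), and its muscle change of -0.46 ± 0.26 was not called (contrast 1.26 ± 0.35, adjusted p = 0.00629). PSPH of serine synthesis (1.24 ± 0.52) and ATF4 itself (0.28 ± 0.18) were not called.

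The growth hormone and insulin axis had 1 gene higher and 3 lower of 7 tested (median -0.46), and in muscle 3 rose and 2 fell. Under library totals 0 of the list were higher and 4 lower, beside 369 and 4898 of all 10379 genes. On the TMM scale 13% of all genes tested were higher and 17.7% lower, and in muscle 31.5% rose and 21.3% fell. CISH, a feedback inhibitor of growth hormone signalling, rose in muscle (1.53 ± 0.33, contrast -1.59 ± 0.45), as did the regulatory subunit of PI3-kinase, PIK3R1 (0.80 ± 0.21, contrast -1.14 ± 0.29). IGF2 fell in muscle from a range of 126 to 230.1 CPM (median 177) to one of 94.8 to 172 CPM (median 124) with a liver change of -0.09 ± 0.09 (contrast 0.43 ± 0.13), and IGFBP4 was called over 14 cows only (0.65 ± 0.21). Of 5 circadian genes CCRN4L (1.27 ± 0.42) and NR1D1 (0.93 ± 0.32) had the higher contrast, both through a fall in muscle, and PER1 (-0.04 ± 0.31) and USP2 (-0.63 ± 0.38) were not called. Under library totals CCRN4L, NR1D1 and IGF2 lost the call.

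Several lists had few called contrasts on the TMM scale and more under library totals. This shift was not particular to them, since library totals called 4898 of all 10379 genes lower and 6490 up in muscle. Of 9 heat shock genes none was called for the contrast by edgeR or DESeq2 (0 at an unadjusted p under 0.05; median -0.12), and under library totals 3 were lower (median -0.46) and 8 rose in muscle. On the TMM scale HSPA8 stood at 0.02 ± 0.20, HSP90AA1 at -0.07 ± 0.19 and CRYAB at -0.38 ± 0.34, and HSP90AA1 rose in muscle by 0.33 ± 0.14. Of 79 cytosolic ribosomal genes 1 had the higher and 1 the lower contrast (median 0.05), and under library totals 24 had the lower. RPS2 stood at 0.20 ± 0.12, RPLP0 at 0.12 ± 0.14 and RPL10A, the lower one, at -0.40 ± 0.15. RPL23A and RPL15 were counted almost only in the libraries of the second counting pattern, and their contrasts had standard errors of 2.61 and 1.75. Among 6 genes of ribosome biogenesis none was called for the contrast by edgeR or DESeq2 (2 at an unadjusted p under 0.05; median -0.28) and 3 rose in muscle, and under library totals 3 had the lower contrast (median -0.60) and 6 rose in muscle. On the TMM scale the muscle changes were 1.61 ± 0.39 for MYC and 0.75 ± 0.18 for RRP9. Of 6 cell cycle genes AURKA had the lower contrast (-0.87 ± 0.33, adjusted p = 0.0402, and 0.0611 over 14 cows).

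Genes called in both tissues in opposite directions were few. Those with a symbol that rose in liver and fell in muscle were PC, LDHB, UQCRB, NDUFV2, SLC25A3 and DCUN1D2, a gene of cullin neddylation (0.42 ± 0.10 and -0.43 ± 0.08). Those that fell in liver and rose in muscle were GSTM3 and LGMN. LGMN, the lysosomal protease legumain, measured 259 to 814 CPM (median 580.1) in liver at LP and 180 to 543 CPM (median 371) at EL, and 28.1 to 58.6 CPM (median 41) and 44 to 114 CPM (median 53.8) in muscle. It was lower at EL in the liver of 12 cows and higher in the muscle of 13 (contrast -1.01 ± 0.20). With liver fitted alone over 16 cows none of these 8 genes was called in liver, and over 14 cows DCUN1D2 alone was not (adjusted p = 0.0707).

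The genes examined singly were named in part for a called or large contrast, so the number called and its stability reflect that choice. Over all genes tested 30.8% were called. Of 109 genes examined singly, 74 were called, and 62 of these kept the call without each single cow. The other 12 are listed with the highest adjusted p that leaving out a cow gave. GPX3 lost the call when any of 11 cows was left out (at most 0.0935, without cow 3847), AURKA and RPL10A for any of 8 (0.104 without cow 419 and 0.0872 without cow 426), and ACSS2 and XBP1 for any of 7 (0.0675 without cow 419 and 0.0678 without cow 756). DDIT4, GOT2 and NR1D1 lost it for any of 5 cows (0.0692 without cow 1179, 0.0797 without cow 829 and 0.0611 without cow 3445). C3 and SC5DL lost it for any of 4 (0.0866 without cow 756 and 0.07 without cow 419), BOLA-DQA2 for any of 3 (0.0618 without cow 419) and MT1A for either of 2 (0.0604 without cow 33). None of them changed sign.

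The tissue contrast differed between the genotypes in 2 genes (0.0193%; 1080 at an unadjusted p under 0.05). CMSS1, at 2.09 ± 0.39 (Fert+ minus Fert-, SE, adjusted p = 0.045), had a contrast of 1.51 in the 8 Fert+ and -0.58 in the 8 Fert- cows. The unnamed gene ENSBTAG00000002707 gave 1.40 ± 0.27, from 0.75 and -0.66. The count was 0 with RLE factors and 0 without the cows of the second counting pattern, and 16 with DESeq2.

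At ML the contrast against LP was called in 2082 genes (20.1%), 919 higher and 1163 lower in liver. It uses the same LP libraries as the EL contrast, so values are only set side by side. The respiratory chain had 65 genes higher at EL (median 0.63), and at ML 0 higher and 1 lower (median -0.01). Muscle proteolysis had 8 lower at EL (median -1.17), and 0 lower and 3 higher at ML (median 0.22). Extracellular matrix had 4 higher at EL and 1 at ML, and cytosolic ribosomal genes had 1 lower at EL and 25 at ML (median -0.24). For single genes the EL and ML contrasts were 2.21 and -1.23 for LDHA, 1.79 and -1.46 for PC, -2.19 and 0.70 for GABARAPL1, and 1.26 and -1.35 for ASNS. Those of SORT1 were -2.15 and -1.27, and those of DCUN1D2 0.85 and 0.78. The liver genes ALB and FGB had ML contrasts of -4.36 and -2.49, through muscle changes of 4.28 and 2.09 from LP medians of 0.446 and 1.19 CPM.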

How the data were processed

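RNA from percutaneous punch biopsies was sequenced after Illumina TruSeq library preparation. The authors aligned reads with STAR to UMD 3.1 and deposited raw counts per Ensembl release 70 gene, made with featureCounts and not normalized. Tables of the whole series hold 96 columns that name no sample, and these were not used. Some muscle sample files differed from the matching columns, and the files of single samples were used. Cow, tissue, time-point and genotype came from the labels.

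CPM was computed from counts and TMM factors, without gene lengths. The 64 libraries were fitted with edgeR 4.0.16 (quasi-likelihood test, robust, two-sided, Benjamini-Hochberg adjustment over all 10363 genes, threshold 0.05) under R 4.3.3 with limma 3.58.1, with cow within tissue as block. Every ± is the standard error of the fit that its value comes from. The exact permutation test flipped the sign of the contrast of each of 16 cows on log2(CPM + 1). Alternatives included DESeq2 1.42.0. The fit of the tissue contrast was also run on simulated counts, and its outcome is not given. Tables used Python 3.11.15.

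The pairing rests on the cow number. Deviations from group means correlated within a cow at a median of 0.19 between liver LP and EL and 0.28 in muscle, and at -0.05 and -0.03 between cows.

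The members, the gene lists and the tests were chosen with earlier results of these data known. Named genes were, by contrast, the 10 most positive and 10 most negative among called genes of equal sign in at least 14 cows, up to 6 in each direction called in both tissues oppositely, and of each list the 3 largest contrasts and the 2 most abundant genes. Some are not reported here by name. CMSS1 and ENSBTAG00000002707 were named after their values were seen. The labels do not say whether libraries shared a sequencing run, and counts limit precision most for genes near 1 CPM.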

Additional observations from a re-analysis of the deposited data

Results flagged for a closer look

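The change from LP to EL differed between liver and muscle in 3190 genes by the test of the difference itself. The tissue contrast differed between Fert+ and Fert- cows in CMSS1, by 2.09, and in ENSBTAG00000002707, by 1.40, on the log2 scale.

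Of 218 groups of 8 cows examined, 1 per named gene and genotype, 19 (8.72%) held a cow far from the other 7 by Dixon's criterion, and chance flags about 1 in 20 groups. Cow 426 was that cow in 8 groups, with contrasts on log2(CPM + 1) of -2.20 for RASL11B, -1.73 for LDHB, -0.647 for SLC25A3, -3.00 for P4HB, -3.08 for BST2, -4.10 for HERC6, -3.08 for OAS1Y and 2.64 for PIK3R1. Cow 3847 was it in 5 groups, with -1.39 for ECHS1, 3.1 for DDIT4, 3.35 for HSP90B1, -1.15 for NR1D1 and -4.40 for CAT. Cow 164 was it in 3 groups, with -1.37 for SLC7A8, -3.15 for GSTM3 and -5.37 for RPL15. Single groups held cow 430 at 0.53 for CFB, cow 996 at -1.99 for C3 and cow 982 at 1.49 for RPLP0.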

How the results depend on the processing

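The count of 3190 genes with a tissue contrast ranged from 2718 to 3597 without single cows and became 5267 with library totals only, 1880 with a mean CPM of at least 10 (fewer genes tested), 1015 in Fert+ cows alone and 2027 in Fert- cows alone (fewer cows). The muscle count of 5478 ranged from 5074 to 5625 without single cows and became 2973 with a mean CPM of at least 10 and 3086 in Fert+ cows alone. The liver count of 328 ranged from 78 to 927 without single cows. It was 209 without cow 33, 82 without 164, 927 without 426, 89 without 756, 78 without 782, 176 without 1179, 157 without 3397, 105 without 3445 and 137 without 3847. It became 607 with DESeq2, 195 with library totals, 194 with a mean CPM of at least 10, 896 over 96 libraries, 0 without the cows of the second counting pattern, 503 in Fert+ cows alone, 0 in Fert- cows alone (425 at an unadjusted p under 0.05), 1146 without cows 426 and 3434, 0 with the tissues fitted apart and 598 with both of the last. The cause was not tested.

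The genotype count of 2 became 1 with no replicate block, 0 with RLE factors, 6 with a mean CPM of at least 10, 16 with DESeq2, 0 without the cows of the second pattern and 1 without cows 426 and 3434. The ML count of 2082 became 1049 with a mean CPM of at least 10 and 635 without the cows of the second pattern.

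Without the pairing by cow (no replicate block) 2936 genes had a contrast, 433 were called in liver (342 up, 91 down), 5259 in muscle and 1508 at ML. The contrast of GPX3 then turned to -0.0041, and 12 of the 74 called named genes lost the call. With library totals the mean contrast of B2M per cow turned to -0.246. The 74 called named genes, chosen in part for a called or large contrast, gave 2487 values over all alternatives. Of these values 2293 kept direction and call, 193 lost the call and 1 reversed, and 31 genes kept both throughout. Settings that left out the cows of the second pattern, used library totals or kept 1 genotype cost 14, 11, 28 (Fert+) and 29 (Fert-) calls. Results without cows 426 and 3434 or 996, and with the tissues apart, were chosen after seeing the data.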
